A study of Mus musculus with 6 samples.

Results

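The Hox cluster genes are the protein-coding mouse genes whose symbol reads Hox, a letter from a to d, and a number, and 39 of the 21757 protein-coding genes of the GENCODE M39 annotation carry such a symbol. They lie in 4 clusters, Hoxa with 11 genes on chromosome 6, Hoxb with 10 on chromosome 11, Hoxc with 9 on chromosome 15 and Hoxd with 9 on chromosome 2. The rule reads symbols and uses no measured value, though it was chosen with earlier results of these data known. Intervals were taken at these genes in 3 ways, each named where it is used: by a transcript identifier in the annotation or nearest-promoter column that names the gene, by distance to its annotated starts, and by overlap with the cluster. In H3K4me3 replicate 1 the identifiers named a Hox gene in 79 regions, and Hoxa11 in none, while 97 regions overlapped a cluster.

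The study profiled the histone mark H3K4me3 and TAF4b, one of the proteins that make up TFIID, by CUT&RUN, in which an antibody tethers a nuclease that releases the surrounding DNA for sequencing. The cells were prospermatogonia, the germ cells that the testis holds before birth, taken at embryonic day E16.5 from males of strain C57BL/6 with the genotype Taf4b-wildtype. All groups shared a homozygous Oct4-EGFP transgene (B6;129S4-Pou5f1tm2Jae/J), whose green fluorescence was used to sort the cells out of dissociated gonads. The TAF4b, H3K4me3 and IgG groups hold 2 libraries each, and the IgG libraries were not analysed here. The labels do not say whether the 2 libraries of a group came from separate animals, so the spread between them may be technical.

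Hox genes encode homeodomain transcription factors that assign position along the body axis, and within a cluster their order on the chromosome follows the order in which they are used, with the low numbers anterior and the high numbers posterior. The same number in different clusters marks paralogues, copies descended from one ancestral gene. H3K4me3 is a mark of promoters, including many that are not transcribed, and in germ cells and stem cells developmental genes such as these are known to carry it together with the repressive mark H3K27me3. TFIID recognises core promoters and starts assembly of the RNA polymerase II machinery, and TAF4b is its gonad-enriched form of the subunit TAF4. Neither H3K27me3 nor RNA was measured in the libraries used here.

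The 4 stretches below are shown because they hold the non-exonic bases of TAF4b peaks found at Hox genes, the smaller set of the results. They are from the GRCm39 genome, 5′ to 3′ on the strand of the gene, with capitals for matches to the motifs searched on both strands. These were the TATA box spelled TATAAA, the GC box spelled GGGCGG, the CCAAT box, the E box spelled CACGTG, the cyclic AMP response element spelled TGACGTCA, and the core of the NRF1 motif. No motif contains another, so matches of different motifs overlap at most at their edges. The Hoxb13 peak is cut at the first annotated exon, and the peaks in exons of Hoxa9 and Hoxd1 are not printed. Their intervals are Hoxa7 at chr6:52194489-52194631 (minus strand), Hoxa13 at chr6:52237823-52237965 (minus), Hoxb13 at chr11:96085016-96085105 (plus) and the peak upstream of Hoxd12 at chr2:74503388-74503530 (plus).
Hoxa7: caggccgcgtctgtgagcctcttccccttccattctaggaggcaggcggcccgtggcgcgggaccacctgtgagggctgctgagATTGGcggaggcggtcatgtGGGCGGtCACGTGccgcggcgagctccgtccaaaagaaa
Hoxa13: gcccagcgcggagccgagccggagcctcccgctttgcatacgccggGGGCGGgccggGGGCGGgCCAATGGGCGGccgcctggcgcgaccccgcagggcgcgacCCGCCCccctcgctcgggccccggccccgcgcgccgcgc
Hoxb13: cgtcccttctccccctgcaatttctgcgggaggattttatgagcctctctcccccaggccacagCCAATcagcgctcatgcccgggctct
Hoxd12: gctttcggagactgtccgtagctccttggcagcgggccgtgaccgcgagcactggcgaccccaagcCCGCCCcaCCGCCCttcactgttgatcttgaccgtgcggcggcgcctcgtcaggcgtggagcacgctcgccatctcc
The Hoxa13 stretch holds 4 GC boxes and 1 CCAAT box, and its GC content of 86% compares with a median of 62.9% over all 7852 TAF4b replicate 1 peaks on the chromosomes used. The Hoxa7 stretch holds 1 GC box, 1 CCAAT box and 1 E box. A CCAAT box stands in the Hoxb13 stretch and 2 GC boxes in that of Hoxd12. Over the 7 whole peaks, 4 held a GC box against 48.5% of all peaks, 3 a CCAAT box against 39.5%, 1 an E box against 7.25% and 1 a response element against 3.95%. None held a TATA box, which 1.87% of all peaks did, or the NRF1 core, which 1.27% did. A match is a run of letters and was not shown to be bound.

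The clusters also hold microRNA genes, and mature sequences from RefSeq (GRCm38.p6) are shown for the pairs that repeat a seed between clusters. Capitals mark the seed, bases 2 to 8.
miR-10a-5p (Mir10a, Hoxb): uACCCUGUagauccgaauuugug
miR-10b-5p (Mir10b, Hoxd): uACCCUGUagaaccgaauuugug
miR-196a-5p (Mir196a-1, Hoxb, and Mir196a-2, Hoxc): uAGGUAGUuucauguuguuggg
miR-196b-5p (Mir196b, Hoxa): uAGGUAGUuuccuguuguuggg
The first pair shares ACCCUGU and the second AGGUAGU, so each family is spread over different clusters as the Hox paralogues are. All 5 of these genes, and Mir615 in Hoxc, had an H3K4me3 replicate 1 region within 1000 bp of the gene start, against 20.5% of the 2201 annotated microRNA genes. The scores of these regions ran from 56.6 at Mir196a-2 to 168.4 at Mir10b. The regions counted for Mir10b, Mir10a and Mir615 are those at the starts of Hoxd4, Hoxb4 and Hoxc5, so they are not separate microRNA signal.

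The 4 lists are very unequal, and every result below rests on that. H3K4me3 replicate 1 holds 64891 regions and replicate 2 holds 1730, while TAF4b replicate 1 holds 7861 peaks and replicate 2 holds 848. Each list was made from 1 library, total reads are not given, and the depth is therefore unknown. The score of an interval is the authors' value with a normalization not given in the sources used here, so scores are ranked within a list only. Of 14 germ cell markers, 12 had an H3K4me3 replicate 1 region within 1000 bp of an annotated start and 7 had a TAF4b replicate 1 peak there (72% and 29% of all protein-coding genes did), among the latter Ddx4, Dazl, Mael, Piwil2 and Sall4, while Nanos2 had neither. Pou5f1, the Oct4 gene of the reporter, had a region of score 90.9 and no TAF4b peak. Markers of other testis cells also had H3K4me3 regions, 5 of 6 for Sertoli cells, 3 of 7 for Leydig and interstitial cells, 2 of 3 for endothelium and 1 of 3 for blood. Amh, Star, Cyp11a1, Hsd3b1, Cyp17a1, Cdh5, Hbb-bs and Csf1r had none, whereas the regions at Wt1 and Gata4 scored 230 and 200. TAF4b peaks stood at 1 of 6 Sertoli, 2 of 7 Leydig and interstitial, 0 of 3 endothelial and 0 of 3 blood markers. Which part of the Hox signal came from cells other than germ cells was not tested.

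In H3K4me3 replicate 1 the Hox clusters were among the most densely covered stretches of the genome. Regions covered 40.8% of the bases of Hoxa, 34.2% of Hoxd, 26.1% of Hoxc and 20.8% of Hoxb. The chromosomes that carry them were covered to between 2.25% and 3.07%, and the bodies of all protein-coding genes to 2.75%. Among 27213 windows of 100 kb that do not touch a cluster, the median was 1.5%, the 99th percentile 12% and the highest 23.3%. No such window reached the cover of Hoxa, Hoxc or Hoxd, and 6 reached that of Hoxb. The 3 most covered windows of the genome were 1 over Hoxd (32.4%) and 2 over Hoxa (29.5% and 26.6%). The highest window elsewhere, with Abhd8, Ano8 and Bst2 among its 9 protein-coding genes, reached 23.3%, and the window over Hoxd held 10. How far the number of promoters in a window sets its cover was not tested. With windows placed every 10 kb the highest outside value was 27.3%, and of 272053 windows 69 then reached the cover of Hoxb, 2 that of Hoxc and none that of Hoxa or Hoxd.

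**Figure D1:**
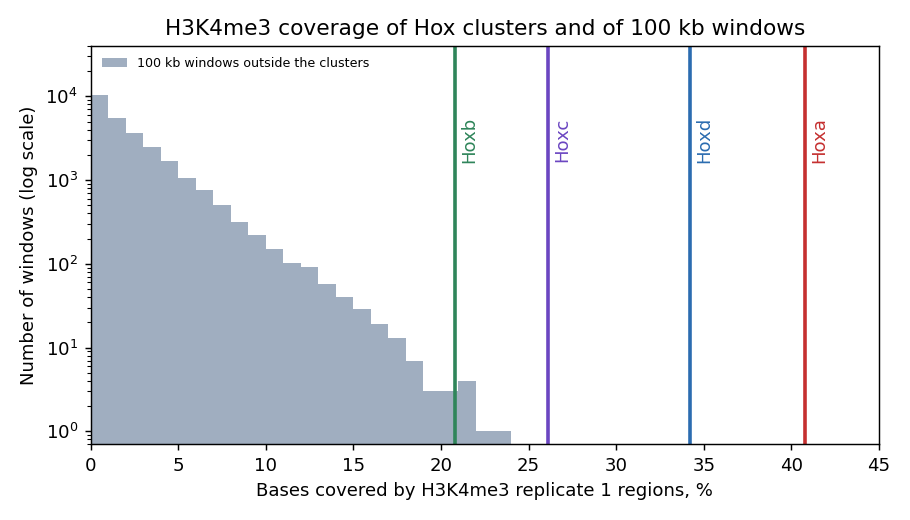
H3K4me3 replicate 1 cover of 100 kb windows that touch no Hox cluster (grey bars, number of windows on a log axis) and of the 4 clusters (vertical lines), in percent of bases. The windows end at 23.3%, left of the lines for Hoxc, Hoxd and Hoxa.

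The plot of cover sets clusters of 96.8 to 174 kb against windows of fixed length, so the lines and bars average over different lengths, most of all for Hoxb. Window against window, the best tiled one was 29.5% in Hoxa, 32.4% in Hoxd, 19.9% in Hoxc and 19.7% in Hoxb, and 0, 0, 10 and 11 outside windows reached these. With windows every 10 kb the best were 40.6%, 35.5%, 26.2% and 28.5%, and 0, 0, 1 and 0 outside windows reached these. In replicate 2 the cover was 0.476% of Hoxa, 0% of Hoxb, 1.3% of Hoxc and 0.517% of Hoxd, against 0.0747% of protein-coding gene bodies. Of the outside windows, 0.169% reached the replicate 2 cover of Hoxc and 5.78% reached that of Hoxa. The order of the clusters therefore differed between replicates, with Hoxa first in replicate 1 and Hoxc first in replicate 2, where it rests on 3 regions.

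In the deposited list, cover came from many separate regions rather than from one continuous region. The peak caller is not given, so how it cut the signal into regions is unknown. Replicate 1 had 97 regions across the clusters, 24 in Hoxa, 30 in Hoxb, 22 in Hoxc and 21 in Hoxd, which is 22.8, 17.2, 19 and 21.7 per 100 kb. Of these, 2, 7, 4 and 1 had the minimum width of 500 bp. Median width was 1788 bp in Hoxa, 1446 bp in Hoxd, 1225 bp in Hoxc and 1048 bp in Hoxb, and median scores followed the same order at 133, 98.4, 93.2 and 69.3. Over the 97 regions the median width was 1357 bp, against 779 bp for the whole list and 1197 bp for its regions of the class promoter-TSS. Of the 97, 32 were at least 2000 bp wide (33%, against 5.29% of the list), and 38 were in the top decile of scores (39.2%, against 10.1%). In Hoxb the longest stretch without a region was 28.7 kb, between Hoxb13 and Hoxb9 (chr11:96097098-96125761), and the longest in the other clusters ran from 7.21 kb in Hoxa to 10.5 kb in Hoxc.

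**Figure D2:**
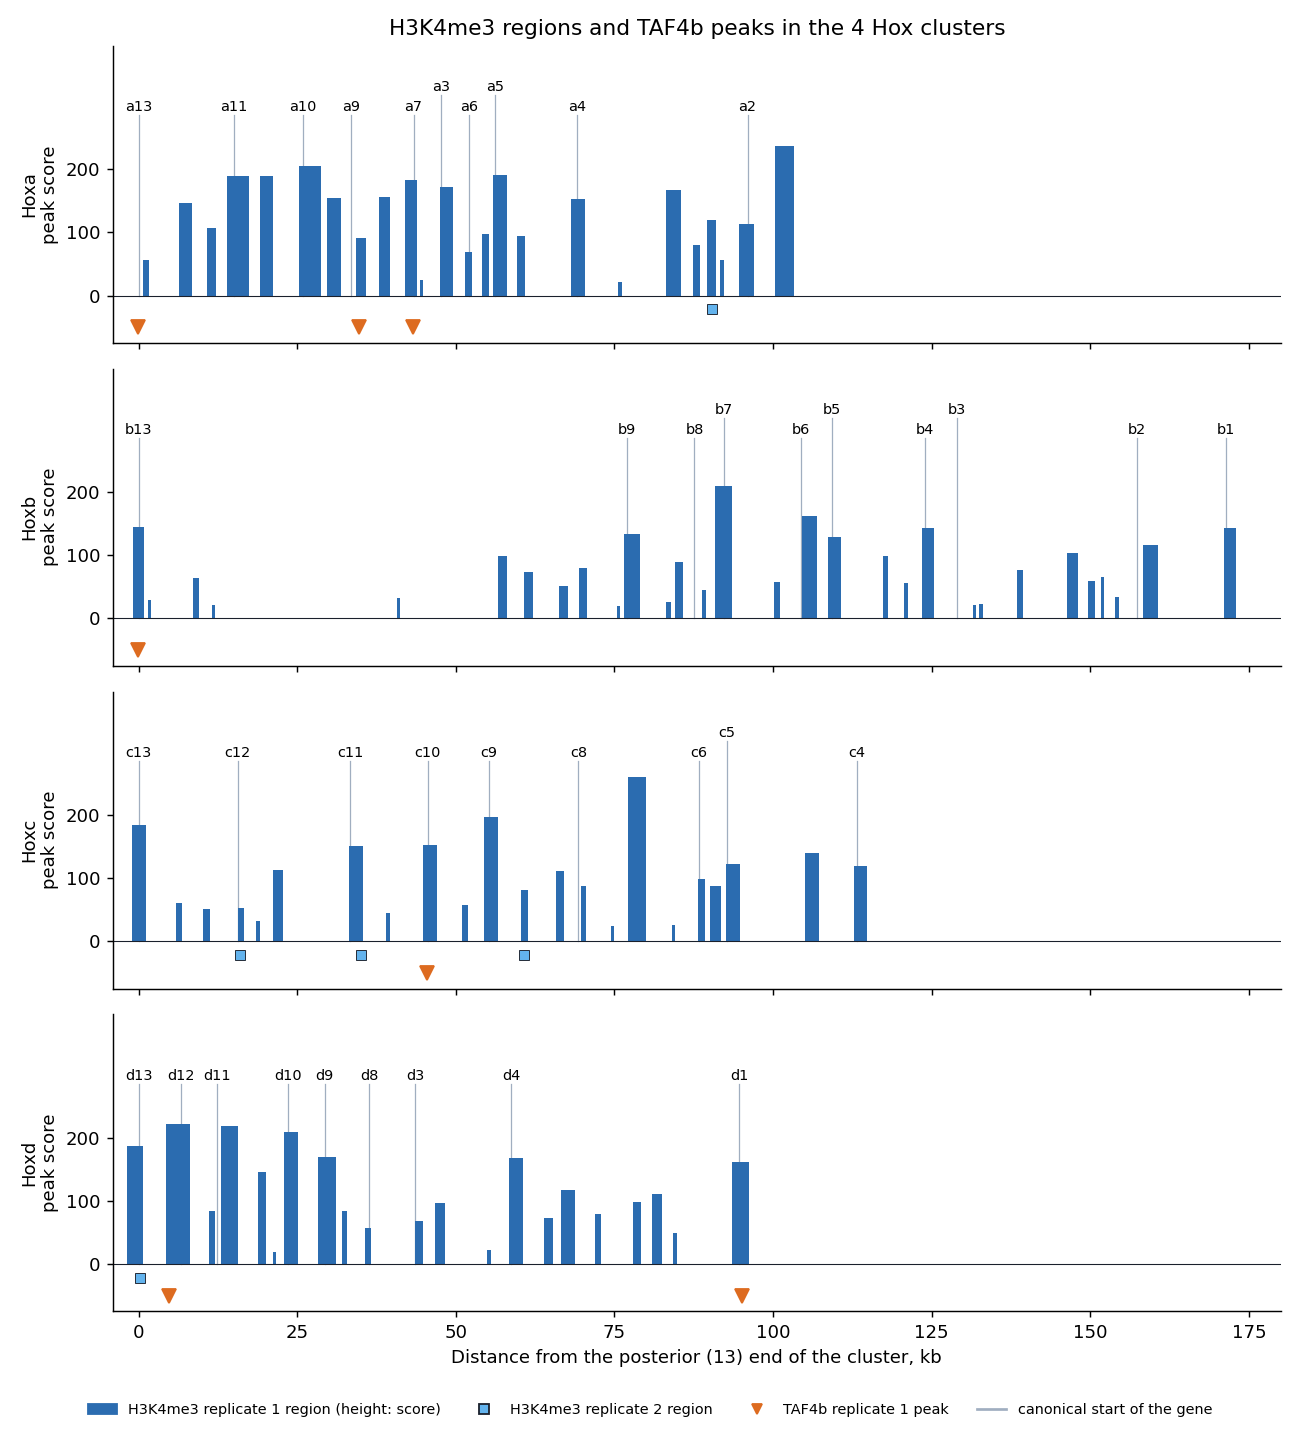
The 4 Hox clusters, each with its posterior end at 0 kb. Bars are H3K4me3 replicate 1 regions with their score as height, squares are the 5 H3K4me3 replicate 2 regions, triangles are the 7 TAF4b replicate 1 peaks, and grey lines are canonical gene starts, of which 38 are drawn. Bars are spread along all clusters, with a long gap beside Hoxb13, and most stand without a triangle.

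The map of the clusters shows which stretches lead in each. In Hoxa the widest region, 3524 bp with a score of 189.3, lay over the start of Hoxa11, a gene of limb and uterus development (chr6:52220374-52223898). The widest region was also the highest-scoring one in each of the other clusters. In Hoxb it lay over Hoxb7 with 2745 bp and a score of 210.2 (chr11:96175961-96178706). In Hoxd it lay over Hoxd12, a limb gene, with 3730 bp and a score of 222.1 (chr2:74502994-74506724). In Hoxc it scored 259.4 over 2885 bp (chr15:102906642-102909527), the highest score in any cluster. Its deposited class is the promoter of a Hoxc6 transcript, with a deposited distance of -877 bp from that start, yet it is not within 1000 bp of the canonical start of any Hox gene. The canonical start is the one GENCODE marks as representative, and its region at Hoxc6 scored 98.4.

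At the level of genes, H3K4me3 replicate 1 marked a start of every Hox gene. All 39 had a region within 1000 bp of an annotated start (100%, 95% Wilson interval 91 to 100), against 72% of all protein-coding genes. Genes with many annotated starts meet that rule more easily, and with the canonical start alone it was 37 of 39 (94.9%, 83.1 to 98.6) against 68.2%. The exceptions were Hoxb3 and Hoxb8, whose canonical starts lay 2445 and 1125 bp from the nearest region. The deposited class promoter-TSS, assigned from the centre of a region, gave 25 of 39 (64.1%, 48.4 to 77.3) against 48.6%. Its interval holds the background share at the lower edge, and the 14 genes outside it, among them Hoxa5, Hoxa11 and Hoxb9, had regions that were classed elsewhere or assigned to another gene. The canonical start itself lay inside a region for 30 genes (76.9%, 61.7 to 87.4, against 56.2%). These intervals cover counting error only, and neighbouring genes of a cluster are not independent of each other.

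**Figure D3:**
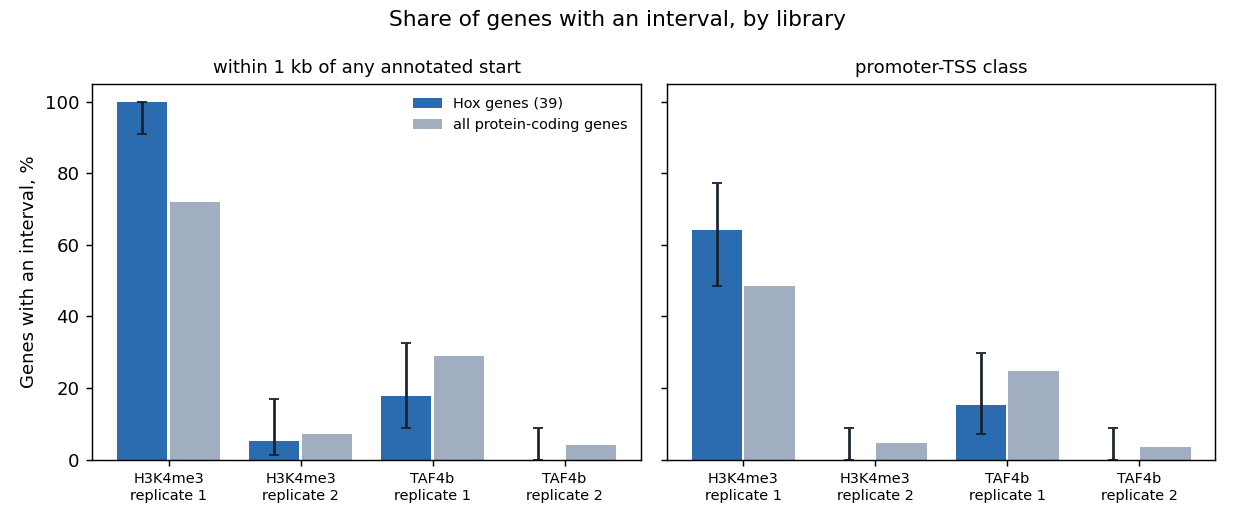
Percent of the 39 Hox genes (blue, with 95% Wilson intervals) and of all 21757 protein-coding genes (grey) with an interval in each library, by distance to any annotated start (left) and by deposited class (right). In H3K4me3 replicate 1 the blue bars are above the grey, in the TAF4b libraries and in H3K4me3 replicate 2 they are below.

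The bars also show how much rests on replicate 1. In H3K4me3 replicate 2 no Hox gene had a region of the promoter class (0%, upper limit 8.97%, against 4.78%), and 2 had one within 1000 bp of a start (5.13%, 1.42 to 16.9, against 7.31% by any annotated start and 6.39% by the canonical start). Those 2 were Hoxc12 and Hoxd13, and neither share can be told from the background at this number of genes. The list held 5 regions in the clusters, each of the minimum width of 500 bp, as 57.9% of the list were, and each overlapping a replicate 1 region, as 97.7% of the list did. At Hoxc12 it scored 116.2 (chr15:102845248-102845748) and at Hoxd13, a gene of digit and genital development, 96 (chr2:74498669-74499169). The others lay in an intron of Hoxc11 (101.1, chr15:102864359-102864859), at the end of Hoxc9 (121.3, chr15:102890063-102890563) and at the end of the noncoding gene Hoxaas2, inside Hoxa3 (96, chr6:52147228-52147728). By class 2 lay in exons, 1 in an intron and 2 at transcript ends. Scores ran from the lowest of the list, 96, to 121.3, with 2 of the 5 above the list median of 111. The Hoxc12 region was thus found in both lists although its replicate 1 region, at 52.2, had the lowest score among Hox starts.

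The replicates also gave different shares at equal list length. When replicate 1 was reduced to its 1730 highest-scoring regions, as many as replicate 2 holds, 11 Hox genes (28.2%) were left with a promoter-class region, against 4.02% of all protein-coding genes. Among them were Hoxa7, Hoxa10, Hoxb7, Hoxc6, Hoxc9, Hoxc13, Hoxd9, Hoxd11, Hoxd12 and Hoxd13. Replicate 2, with as many regions, gave 0 of 39 against 4.78%. In the clusters the reduced list held 17 regions and replicate 2 held 5. By distance to a start replicate 2 had 2 Hox genes, and the reduced list was not counted by that rule. Seen from the regions, 5 of the 97 cluster regions of replicate 1 were found again in replicate 2 (5.15%, 2.22 to 11.5) against 2.6% of the list, and 3 of the 38 top-decile cluster regions of replicate 1 were found again (7.89%, 2.72 to 20.8) against 13.8% of all top-decile regions. Both of these backgrounds lie within the interval. GC content moved with recovery across the list, with a median of 65.2% in top-decile regions found again, 60% in those not found, and 59.3% in the 38 at the clusters. Its part in the result was not tested.

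Hox starts carried high-scoring and wide regions in replicate 1. Over the 37 genes the best region within 1000 bp of the canonical start had a median score of 152 (lowest 52.2, highest 237) and a median width of 2205 bp (770 to 3730 bp). The 14836 protein-coding genes with such a region had medians of 89.4 and 1394 bp. The median Hox gene stood at percentile 86.4 of these genes by score and 87.6 by width. The top 2 deciles of genes by score held 23 of the 37, and no Hox gene was in the lowest 2 deciles. The 37 regions were all different, so that no gene borrowed the region of another at its canonical start. Of the 37, 2 (5.41%) also had a replicate 2 region there, against 9.32% of the 14836.

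By cluster, median scores at the starts were 171 in Hoxa, 170 in Hoxd, 143 in Hoxb and 122 in Hoxc, and ranges within a cluster overlapped throughout. Values in Hoxa included 56.6 at Hoxa13 and 204.2 at Hoxa10, and Hoxd ran from 56.6 at Hoxd8 to 222.1 at Hoxd12. Hoxb was narrower, from 116.3 at Hoxb2 to 210.2 at Hoxb7, with the 2 genes lacking a region left out. Hoxc ran from 52.2 at Hoxc12 to 196.8 at Hoxc9. Median widths were 2616 bp in Hoxd, 2186 bp in Hoxb, 2183 bp in Hoxa and 2099 bp in Hoxc.

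Along the body axis, the 16 posterior genes (numbers 9 to 13), used in the trunk end, limbs and genital tract, had the highest median score at 177, with 143 for the 7 anterior genes (1 to 3) with a region and 136 for the 14 central genes (4 to 8) with one. The ranges again overlapped almost wholly, 52.2 to 222 for posterior, 68.6 to 237 for anterior and 56.6 to 210 for central genes. In Hoxd, 4 neighbours from Hoxd10 to Hoxd13 scored 208.7, 217.6, 222.1 and 186.3. Hoxd8 scored 56.6 and the canonical start of Hoxd3 scored 68.6. Hoxd3 has 7 annotated starts, and its canonical one lies between those of Hoxd8 and Hoxd4. Promoter-class regions at Hoxd3 past the Hoxd4 start scored 73 and 116.3. Hoxa3 also has 7 annotated starts, and its canonical one (171.4) lies between those of Hoxa6 and Hoxa7. Both genes are counted as anterior by their number. The group 13 paralogues were not alike, with 186.3 at Hoxd13, 183.3 at Hoxc13, 144.6 at Hoxb13 and 56.6 at Hoxa13.

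**Figure D4:**
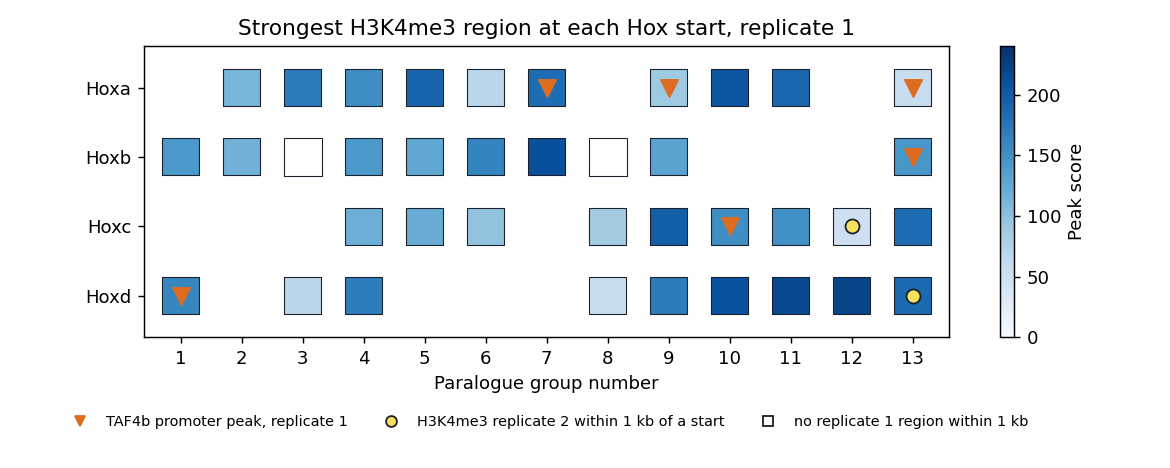
Each square is one of 38 Hox genes, placed by cluster and paralogue number and shaded by the score of its strongest H3K4me3 replicate 1 region within 1000 bp of the canonical start. Triangles mark the 6 genes with a TAF4b promoter-class peak in replicate 1, circles the 2 genes with an H3K4me3 replicate 2 region within 1000 bp of a start, and white squares Hoxb3 and Hoxb8, which have no replicate 1 region there. Dark squares occur in every cluster and at low and high numbers.

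TAF4b was found at few Hox promoters. Replicate 1 had promoter-class peaks at 6 of 39 genes (15.4%, 7.25 to 29.7) against 24.9% of all protein-coding genes, a background that lies within the interval. They were Hoxa7, Hoxa9, Hoxa13, Hoxb13, Hoxc10 and Hoxd1. Distance to any annotated start added Hoxc5, through a long transcript that starts beside Hoxc10, for 7 of 39 (17.9%, 8.98 to 32.7) against 29%. The canonical start alone gave 5 (12.8%, 5.6 to 26.7), without Hoxa9, against 27%, and here the background lies just above the interval. Replicate 2 had no peak at any Hox gene under any of these rules (upper limit 8.97%), against 3.55% of all protein-coding genes by class, 4.13% by any annotated start and 3.87% by the canonical start. In the grid of genes 3 of the triangles are in Hoxa and 1 in each other cluster, and 4 of the 6 are posterior genes.

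The peaks at Hox genes had low scores for their list. Hoxa7, a thoracic patterning gene, had the strongest at 15.4, with a deposited distance of -75 bp from its start and inside an H3K4me3 region of score 183.3. Hoxb13, known for roles in the tail and prostate, had a peak of 11.4 at -55 bp, within a region of 144.6. Hoxc10, of the lumbar spine and hindlimb, had a peak of 10.9 at -213 bp, within a region of 152. Hoxa7 was just above the median of the list, 14.9, and the other two were below it.

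The remaining peaks scored lower still. Hoxa13, a gene of the digits and urogenital tract, had a peak of 10.4 at -106 bp, which overlapped no H3K4me3 region and lay 260 bp from the nearest one. Hoxa9, known for its role in blood progenitors, had a peak of 9.93 (chr6:52203047-52203189) at 51 bp downstream of an annotated start but 1232 bp from the canonical one, in exonic sequence and within a region of 90.9. The Hoxd1 peak scored 9.43 (chr2:74593771-74593913), 518 bp into the gene and in its coding exon. Its deposited annotation names Haglr, a noncoding gene that starts there in the opposite sense, so the peak cannot be assigned to one of them. A last peak of 9.43 lay in intergenic sequence at -1898 bp from Hoxd12, within the 3730 bp region of score 222.1. Of the 7 peaks, 6 overlapped an H3K4me3 replicate 1 region, as 84.1% of all TAF4b replicate 1 peaks did, and 6 were below the median of the list.

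Peaks of such scores were seldom found in replicate 2 anywhere. Of the 3005 replicate 1 peaks in the score range of the peaks in the clusters, 9.43 to 15.4, 26 were found in replicate 2 (0.865%), against 8.37% of the list and 43.4% of its top decile. With replicate 1 reduced to its 848 highest peaks, no Hox gene was left, against 3.79% of protein-coding genes. With the higher-scoring 50% of the list, Hoxa7 alone was left (2.56%, against 15.8%).

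Read against H3K4me3, most marked Hox starts had no TAF4b peak. Among genes with an H3K4me3 replicate 1 region at the canonical start, 5 of 37 Hox genes had a TAF4b peak there (13.5%, 5.91 to 28), against 5723 of 14836 protein-coding genes (38.6%). Genes without a region had one in 2.07%. In the top 2 deciles by H3K4me3 score it was 4 of 23 Hox genes (17.4%, 6.98 to 37.1) against 1199 of 3000 (40%). Both backgrounds lie above the interval, which treats genes as independent, and no test over libraries is possible for a share of 1 library.

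**Figure D5:**
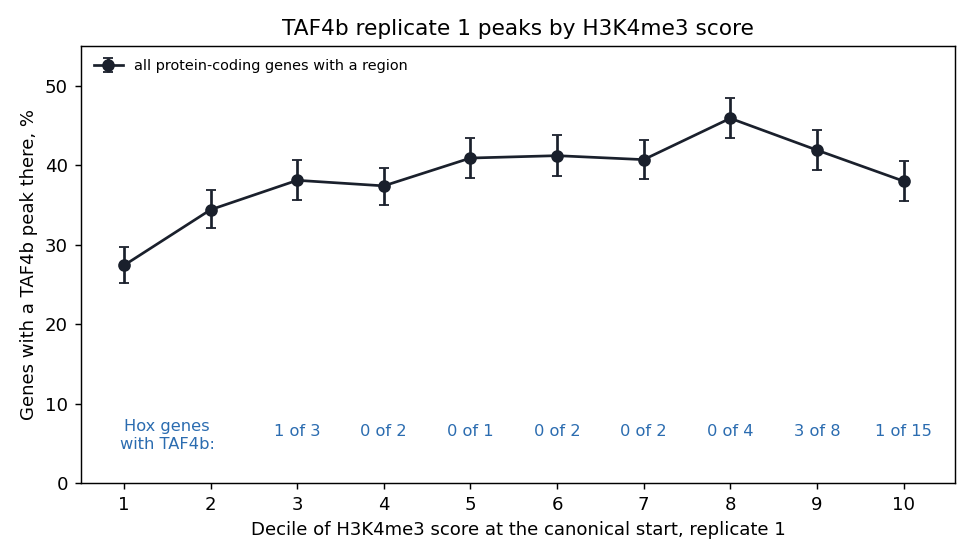
Percent of protein-coding genes with a TAF4b replicate 1 peak within 1000 bp of the canonical start, by decile of the H3K4me3 replicate 1 score there (points, with 95% Wilson intervals). Blue figures give the Hox genes with a TAF4b peak out of those in each decile, and 1 of 15 in the highest decile stands under a point at 38%.

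Across all genes the share with TAF4b was 27.4% in the lowest decile of H3K4me3 score, 45.9% in the eighth and 38% in the highest, as the plot by deciles shows. Among Hox genes, in the highest decile 1 of 15 had a peak (Hoxa7), and in the ninth 3 of 8 did, against 41.9%. The fifth was Hoxa13, in the third decile. Hox genes with and without TAF4b had close median H3K4me3 scores, 152 (56.6 to 183, 5 genes) and 151 (52.2 to 237, 32 genes), and the ranges overlapped.

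Base composition of the starts was set beside these shares. In windows of 300 bases, 250 before to 50 after the canonical start on GRCm39, median GC content was 57.3% for the 39 Hox genes, 54.3% for all protein-coding genes, 58.3% for the 14836 with an H3K4me3 replicate 1 region at the start and 60% for the 5866 with a TAF4b replicate 1 peak. A GC box was in 17 Hox windows (43.6%), 42.5% of all windows, 57.6% of those with H3K4me3 and 66% of those with TAF4b, so that Hox starts were near all genes and below marked ones. In the same order, CCAAT was in 27 Hox windows (69.2%) against 39.9%, 39.5% and 45.1%. The E box was in 10 (25.6%) against 7.82%, 9.79% and 11.8%, and TATAAA in 7 (17.9%) against 13.2%, 8.23% and 7.13%. The response element was in 1 (2.56%) against 2.45%, 3.04% and 5.18%, and the NRF1 core in none against 1.16%, 1.64% and 2.44%. The ratio of observed to expected CpG had a median of 0.742 at Hox starts, 0.517 over all genes, 0.686 with H3K4me3 and 0.789 with TAF4b. These are descriptions of letters, and their part in the TAF4b shares was not tested.

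The difference between antibodies was set over libraries. The mean share of Hox genes with a promoter-class interval was 32.1% ± 45.3 (SD, n = 2) for H3K4me3 and 7.69% ± 10.9 (SD, n = 2) for TAF4b. Over all protein-coding genes the means were 26.7% and 14.2%, a difference of 12.4 points. The Hox difference of 24.4 percentage points was smaller than the spread between H3K4me3 replicates and larger than that between TAF4b replicates, and the exact permutation test over libraries gave p = 1 (two-sided), where 2 against 2 cannot go below 0.333. By distance to any annotated start the difference was 43.6 points with an exact permutation p of 0.667, beside 23.1 points over all protein-coding genes.

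Genes that work with or beside the Hox genes gave a mixed picture. The TALE homeodomain proteins, cofactors that bind DNA with Hox proteins, had H3K4me3 replicate 1 regions within 1000 bp of a start at 9 of 9 genes and TAF4b replicate 1 peaks at 5, among them Pbx3, Pbx4, Meis1 and Pknox1. By this rule 72% and 29% of all protein-coding genes had them. Scores at their canonical starts ran from 23.8 at Meis3 to 244 at Meis2, and Pbx3 had a region in replicate 2. The Cdx genes, regulators of Hox transcription, and Evx1 and Evx2, homeobox genes next to Hoxa and Hoxd, had regions at 5 of 5 and TAF4b at 0 of 5, beside the same 72% and 29%. The scores were 289 at Cdx2, 250 at Evx1, 203 at Cdx1, 185 at Evx2 and 62.6 at Cdx4, so that 4 of these 5 were also in the highest decile of genes. Of the ParaHox genes, relatives of the Hox genes outside the clusters, Gsx1, Gsx2 and Pdx1 had regions and Pdx1 had a TAF4b peak. By the deposited promoter class the H3K4me3 counts were 6 of 9 TALE, 0 of 5 Cdx and Evx and 1 of 3 ParaHox genes. The TAF4b counts by class were 4, 0 and 0. In the same replicate 1 lists, 48.6% and 24.9% of all protein-coding genes had them by class.

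Nearby genes were marked as well. Regions stood at 8 of 8 flanking protein-coding genes, which include Evx1 and Evx2, and TAF4b replicate 1 peaks at 2, Skap2 and Calcoco1, again beside 72% and 29%. The TAF4b count was near the background, and 8 genes are too few to set the H3K4me3 count apart from its background. Calcoco1, beside Hoxc, had the one TAF4b peak of replicate 2 in this set, with an H3K4me3 score of 152 equal to the Hox median. Inside the clusters 48 of 60 noncoding genes had an H3K4me3 replicate 1 region within 1000 bp of a start, 2 a TAF4b peak (Haglr and Gm68361) and 1 a replicate 2 region (Gm36878). Among 39804 noncoding genes of the same annotation types in the genome, the shares were 36.7%, 7.8% and 2.02%. Of the 48, 32 had a region that was also within 1000 bp of a Hox start, so that it is counted for both, and 16 had none. The single other protein-coding gene inside a cluster, Gm28230 in Hoxd, shared the region at the Hoxd4 start (score 168.4, 2318 bp) and had no TAF4b peak.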

How the data were processed

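H3K4me3 and TAF4b were each profiled by CUT&RUN in 2 libraries of sorted E16.5 prospermatogonia, grouped by sample titles. The authors deposited 1 list of intervals per library, with coordinates, class, distance to the nearest start and a peak score whose normalization is not given in the sources used here. Annotation of the H3K4me3 regions used GRCm39 and Ensembl 103, per the file headers. The TAF4b lists name no build, and GRCm39 is the build in the submitters' processing notes. Those notes name Trim Galore 0.5.0, Bowtie2 2.3.0, SAMtools 1.9, HOMER 4.10, bcl2fastq 2.20 and FastQC 0.11.5. The peak caller and threshold are not given in the sources used here.

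Transcript identifiers were matched to GENCODE M39, with 98.6% to 99.2% of nearest-promoter identifiers found. An interval was a promoter interval of a gene when its class was promoter-TSS and its annotation or nearest promoter named the gene. Other rules used 1000 bp around starts. Rows at Hoxa13 name an annotation transcript that GENCODE M39 does not hold. The promoter-class rows were assigned by the nearest promoter, and the region of score 56.6 by its distance to the canonical start. Overlap means 1 bp or more in common. Shares carry 95% Wilson intervals. The calling of genes by distance and the cover of the clusters were tested on simulated data. The cover of the tiled 100 kb windows was computed separately and was not part of that check. The only test over libraries was a two-sided exact permutation. Scripts used Python 3.11.15, pandas 2.3.3, numpy 2.4.6 and scipy 1.17.1.

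Described in full were members with a TAF4b peak, members with a region in H3K4me3 replicate 2, and the widest and highest-scoring region of each cluster. The members, the rule and the lists (germ cell, Sertoli, Leydig and interstitial, endothelial and blood markers, TALE cofactors, upstream and linked homeobox genes, ParaHox, flanking and noncoding genes) were chosen with earlier results of these data known. The genes of the highest outside window and of the reduced list were named after their values were seen. Motif counts had been planned on the RefSeq promoter table, which matched 22 of the 39 genes. That check is void, and windows were read from GRCm39 instead. Some genes and 1 sequence are counted but not reported here by name.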

Additional observations from a re-analysis of the deposited data

How the results depend on the processing

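Of 72 alternative values, 18 left out a replicate. Of the other 54, 47 moved by less than the spread between the 2 replicates, which is wide (SD 45.3 for the H3K4me3 share). The 4 values for the difference between antibodies kept its direction. Direction alone was judged there, since the exact permutation over libraries cannot go below 0.333 and that over pairs cannot go below 0.5. The exceptions were the TAF4b replicate 1 share of 15.4%, which was 2.56% with the higher-scoring 50% of the list and 0% with equal numbers of peaks, and the median width of 1357 bp, which was 2166 bp over promoter-TSS regions at Hox genes. Leaving out each replicate gave 0 to 64.1% for H3K4me3, 0 to 15.4% for TAF4b and 0 to 48.7 points for their difference. Cover then ran from 0.476 to 40.8% in Hoxa, 0 to 20.8% in Hoxb, 1.3 to 26.1% in Hoxc and 0.517 to 34.2% in Hoxd, median width from 500 to 1357 bp and the median score percentile from 24.1 to 84.1. Replicate 1 decides each of these, as each takes its lower value without it. Other rules gave 48.7 to 100% for H3K4me3 replicate 1 (28.2% with equal numbers), with 48.7% against 44% of all genes by annotation transcript alone. They gave up to 10.3% for replicate 2, where any row naming the gene put 4 of 39 against 7.46% of all genes, 10.3% (against 22.7%) to 17.9% for TAF4b replicate 1, and 38.5 and 43.6 points for the difference by distance.

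With the replicate block, which pairs same-numbered libraries on the number alone, the differences were 48.7 and 0 points with a mean of 24.4 and an exact sign-flip permutation p of 1, where 2 pairs cannot go below 0.5. All protein-coding genes gave 23.7 and 1.23 points. By distance to any annotated start they were 82.1 and 5.13 points, with p = 0.5 by the same exact permutation, beside 43 and 3.18 points over all protein-coding genes. Replicate 2 of H3K4me3 has no promoter-TSS region at a Hox gene, so width and score over that class could not be computed there. The canonical start, the annotation transcript alone, windows every 10 kb and the GRCm39 promoter windows were chosen after seeing the data. Without read totals, absence of an interval cannot be told from low depth.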
